A study of Mus musculus with 12 samples.

Results

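The genes described here are 9 components of JAK-STAT signalling, the route by which IFNγ, interferons and many cytokines reach the nucleus: the IFNγ receptor chains Ifngr1 and Ifngr2, the kinases Jak1 and Jak2, the transcription factors Stat2 and Stat3, and the feedback inhibitors Socs1, Socs3 and Cish. They were chosen by name, and all 9 were among the 47937 genes of the count table and among the 11760 genes with enough reads to be tested. RNA sequencing was done on bone marrow-derived macrophages from C57BL/6 mice aged 6 to 8 weeks, grown for 7 days with 20 ng/ml CSF-1. The 4 groups of 3 libraries were resting macrophages (M0), macrophages stimulated with 50 ng/ml IFNγ and 20 ng/ml LPS (IFNγ + LPS), and each of these with 50 µM T863, an inhibitor of DGAT1 (DGAT1i), the enzyme that makes triglyceride from diacylglycerol. Stimulation and inhibitor were given for 18 h. The comparisons ask how stimulation changed these genes, and whether blocking triglyceride synthesis changed them at rest or under stimulation. No allele was altered in any group, and every culture received CSF-1. Blocking was by a single chemical at 1 dose, and for 2 of the 3 M0 + DGAT1i libraries a label gives a neighbouring number for the compound, read here as T863. The labels do not say that the libraries came from separate mice, so p-values measure only the spread between these libraries.

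IFNγ binds IFNGR1 and is signalled through IFNGR2, which hold JAK1 and JAK2 respectively. The activated kinases phosphorylate STAT proteins, which move to the nucleus and bind DNA. STAT2 works with IRF9 in the complex that binds the interferon-stimulated response element after type I interferon, and STAT3 carries signals of IL-10 and of the IL-6 family. SOCS1, SOCS3 and CIS, the product of Cish, are made in response to cytokines and damp the receptors and kinases that induced them, SOCS1 mainly on IFNγ signalling, SOCS3 on IL-6 family receptors and CIS on receptors that use STAT5.

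DNA around the transcription start is shown for the 4 members in which one of the motifs bound by these transcription factors was found. RefSeq windows of GRCm38.p6, from 250 bases before to 50 bases after the transcription start, were searched on both strands for TTCNNNGAA, the core of the gamma-activated site, which reads the same on both strands, and for GAAANNGAA, a core of the interferon-stimulated response element. Windows were found for all 9 members. Of all 32851 windows, 8.30% held the first motif and 8.56% the second, and 0.457% and 0.624% held at least 2 copies. Capitals mark the motif, and each sequence is written 5′ to 3′ on the gene's strand.
Stat2: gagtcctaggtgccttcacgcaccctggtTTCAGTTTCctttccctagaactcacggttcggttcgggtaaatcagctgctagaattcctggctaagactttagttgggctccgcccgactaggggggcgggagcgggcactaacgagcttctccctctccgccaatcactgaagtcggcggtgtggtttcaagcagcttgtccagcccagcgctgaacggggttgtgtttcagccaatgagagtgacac
Socs1: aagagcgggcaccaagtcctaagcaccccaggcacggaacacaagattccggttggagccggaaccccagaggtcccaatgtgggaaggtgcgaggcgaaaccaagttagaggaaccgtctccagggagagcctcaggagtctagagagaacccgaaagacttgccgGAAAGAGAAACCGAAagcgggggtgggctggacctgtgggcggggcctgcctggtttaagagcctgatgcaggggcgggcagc
Socs3: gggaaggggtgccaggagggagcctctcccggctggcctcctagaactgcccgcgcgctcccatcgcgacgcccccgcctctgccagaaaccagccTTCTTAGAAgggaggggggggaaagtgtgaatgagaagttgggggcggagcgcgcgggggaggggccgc
Cish: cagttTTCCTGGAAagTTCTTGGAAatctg
The Stat2 sequence is chr10:128270248-128270497, plus strand, with 1 GAAANNGAA on the opposite strand that begins 221 bases before the start. The Socs1 sequence is chr16:10785537-10785786, minus strand, with 2 GAAANNGAA motifs that overlap and begin 83 and 77 bases before the start. The Socs3 sequence is chr11:117969452-117969616, minus strand, with 1 TTCNNNGAA that begins 154 bases before the RefSeq start. This stretch held no annotated exon base of Socs3 but lies inside the gene as GENCODE M21 draws it, since a longer transcript begins upstream. The Cish sequence is chr9:107296654-107296683, plus strand, with 2 TTCNNNGAA motifs at bases 1 and 12 of the RefSeq transcript, inside the first exon of an annotated Cish transcript. The windows of Ifngr1, Ifngr2, Jak1, Jak2 and Stat3 held neither string of letters. A match is a string of letters and not a measured binding site, and no binding was measured here.

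Totals ran from 4996014 to 6621671 reads per library, so a CPM, the unit of level used here (reads per 1000000 of the scaled total), stood for 4.28 to 7.58 reads after scaling. Reads were found for all 10 macrophage marker genes in every group, and their sum was 13441 to 14674 CPM in M0, 16394 to 18411 in M0 + DGAT1i, 8750 to 9414 in IFNγ + LPS and 8319 to 9256 in IFNγ + LPS + DGAT1i. The 5 genes that mark classical activation summed to between 0.436 and 1.56 CPM in the M0 libraries with and without DGAT1i, and to between 11546 and 12484 CPM in the stimulated ones. A list of 10 neutrophil markers summed to 37.2 to 45.4 CPM in M0, 29.2 to 37.1 in M0 + DGAT1i, 16.8 to 27.3 in IFNγ + LPS and 64.5 to 82.4 in IFNγ + LPS + DGAT1i. Reads were found for 8, 7, 6 and 7 of the 10 in these groups in that order, and Retnlg and Ly6g had 0 reads in every library. Lists of 6 dendritic cell markers and of 6 fibroblast and endothelium markers summed to 8.43 to 12.4 and 4.12 to 6.74 CPM in IFNγ + LPS and to 3.50 to 7.47 and 2.26 to 3.04 CPM in IFNγ + LPS + DGAT1i, and were at most 1.33 CPM in the M0 groups. The part of these lists in the results below was not tested. In these bulk samples, a lower level in each cell and fewer cells that carry the RNA cannot be told apart.

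Stimulation moved all 9 members. Of these, 8 rose in IFNγ + LPS against M0 and Ifngr1 fell, at an adjusted p below 0.05 in edgeR's quasi-likelihood test, adjusted over the 11760 genes by the Benjamini-Hochberg method, as is every adjusted p that follows. The background was high, since 73.3% of all tested genes were called, 37.1% higher and 36.2% lower. Socs1, Socs3 and Cish passed the read filter only through the stimulated libraries, where they were high, so they had to differ, and without them the count was 5 higher and 1 lower of 6. All 9 members also had groups that did not overlap, as did 75.4% of all genes. The median log2 fold change was 3.43 over all 9 members, with Socs1, Socs3 and Cish included, and 0.01 over all genes. Without those genes, the members ran from -1.51 for Ifngr1 to 3.65 for Stat2. With total reads alone as the scaling, the median of all genes moved to -0.46 and the calls of all genes shifted from 4361 higher and 4254 lower to 2340 higher and 7002 lower, while the members kept 8 higher and 1 lower.

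**Figure D1:**
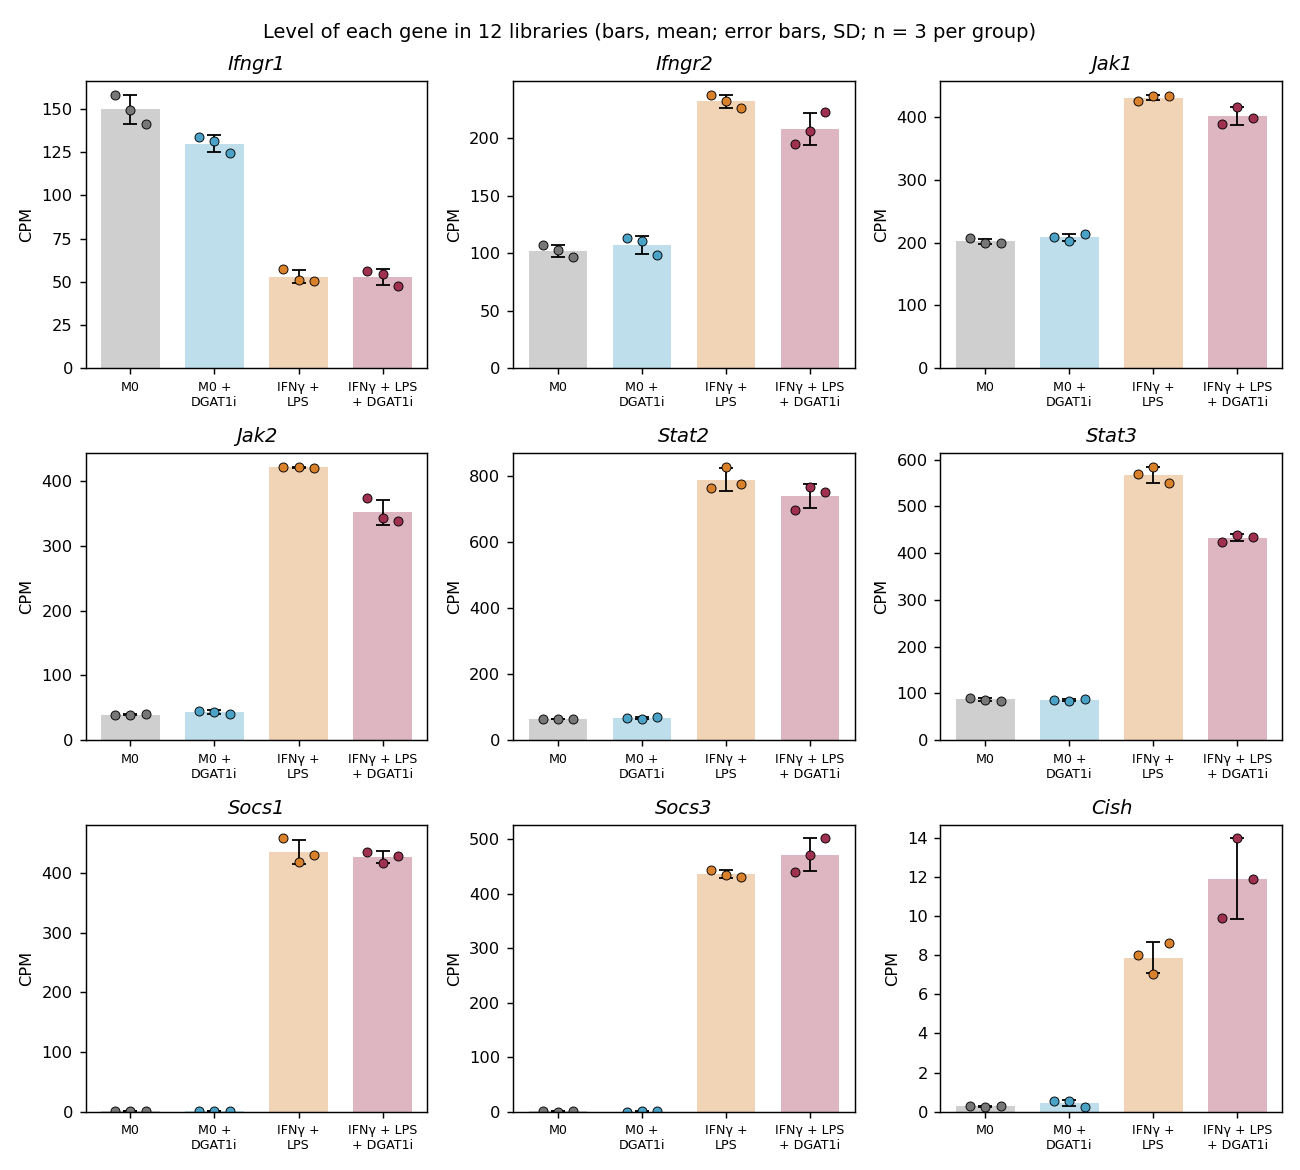
Level of each gene in CPM (linear axis from 0) in the 4 groups. Points are the 3 libraries of a group, bars their mean and error bars the SD. Ifngr1 is the only panel in which the stimulated libraries lie below M0, and Socs1, Socs3 and Cish are close to 0 in both M0 groups.

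The chains of the IFNγ receptor moved in opposite directions. Ifngr1, the chain that binds the ligand (chr10:19591949-19610229), was at 158, 150 and 142 CPM in M0 and at 57.3, 50.8 and 50.6 CPM in IFNγ + LPS. Every stimulated library was thus below every resting one, a fall of 2.84-fold (log2 fold change -1.51, SE 0.07, adjusted p = 5.38e-27). Ifngr2, the signalling chain (chr16:91547072-91565623), was at 107, 103 and 96.5 CPM in M0 and at 238, 233 and 226 CPM in IFNγ + LPS. It rose 2.28-fold in the same libraries (log2 fold change 1.19, SE 0.06, adjusted p = 3.53e-25). Per kilobase of merged exon, Ifngr2 stood at 0.514 ± 0.004 (SD, n = 3) of Ifngr1 in M0 and at 3.33 ± 0.17 times Ifngr1 in IFNγ + LPS, so the order of the 2 chains changed over. The ratios of the groups did not overlap, with an exact two-sided permutation p of 0.1, the lowest that 3 against 3 libraries allow.

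Both kinases rose, Jak2 much more than Jak1. Jak1 (chr4:101152367-101265282) went from 207, 199 and 199 CPM in M0 to 426, 434 and 433 CPM in IFNγ + LPS, a rise of 2.14-fold (log2 fold change 1.09, SE 0.05, adjusted p = 1.20e-26). Jak2 (chr19:29251828-29313080) went from 39.2, 38.2 and 39.7 CPM to 423, 422 and 421 CPM, a rise of 10.8-fold (log2 fold change 3.43, SE 0.06, adjusted p = 1.09e-46). The 3 stimulated libraries were nearly equal for Jak2, with an SD of 1.07 CPM. Per kilobase, Jak2 was at 0.278 ± 0.007 (SD, n = 3) of Jak1 in M0 and at 1.41 ± 0.02 in IFNγ + LPS, and the 2 sets of libraries did not overlap (exact two-sided permutation p = 0.1, the lowest possible).

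Both transcription factors rose as well. Stat2 (chr10:128270559-128292849) was at 64.2, 62.9 and 62.2 CPM in M0 and at 765, 829 and 775 CPM in IFNγ + LPS, a rise of 12.5-fold (log2 fold change 3.65, SE 0.06, adjusted p = 7.36e-49). Stat3 (chr11:100885098-100939540) was at 90.5, 86.6 and 83.4 CPM in M0 and at 570, 585 and 550 CPM in IFNγ + LPS, a rise of 6.55-fold (log2 fold change 2.71, SE 0.06, adjusted p = 4.12e-44). Stat3 rose by less than Stat2, and its level per kilobase went from 0.856 ± 0.022 to 0.448 ± 0.014 (SD, n = 3) of that of Stat2. Stat3 shares 72 exon bases with its neighbour Stat5a, which the counting could assign to either gene.

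The inhibitors went from near absence to levels as high as those of the kinases, Cish excepted. Socs1 (chr16:10782240-10785536) had 3, 5 and 4 reads in the M0 libraries, or 0.436, 0.666 and 0.557 CPM, and stood at 458, 419 and 430 CPM in IFNγ + LPS. This was a rise of 755-fold (log2 fold change 9.56, SE 0.12, adjusted p = 5.51e-55). By log2 fold change Socs1 ranked 42 and Socs3 62 from the top of the 11760 genes. These ranks rest on few resting reads and on a filter that both passed only through the stimulated libraries. Socs3 (chr11:117966079-117970047) had 9, 3 and 9 reads in M0, or 1.31, 0.400 and 1.25 CPM, and stood at 444, 434 and 432 CPM in IFNγ + LPS, a rise of 439-fold (log2 fold change 8.78, SE 0.13, adjusted p = 6.42e-45). Cish (chr9:107296026-107302784) had 2 reads in each M0 library and 38, 39 and 46 reads in IFNγ + LPS, or 8.0, 7.02 and 8.62 CPM. Its rise of 26.4-fold rests on these few resting reads (log2 fold change 4.72, 95% confidence interval 3.96 to 5.48, adjusted p = 9.48e-17). Cish overlaps the antisense genes Gm17040 and Gm17041, which together had 1 read in the 12 libraries. With libraries left out in turn, all 9 calls and their directions held in all 12 fits.

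The order of the members per kilobase of merged exon was rearranged by stimulation. In M0, Ifngr1 was at the top with 52.6 ± 2.9 CPM per kilobase (SD, n = 3), followed by Jak1 with 27.9 ± 0.6 and Ifngr2 with 27.1 ± 1.4, whose libraries overlapped. Stat2 with 10.6, Stat3 with 9.11 and Jak2 with 7.76 CPM per kilobase came next and did not overlap each other. Socs3 with 0.341 and Socs1 with 0.190, which overlapped, and Cish with 0.043 were last. In IFNγ + LPS the order began with Socs3 at 151 ± 2 and Socs1 at 150 ± 7 CPM per kilobase, which overlapped, and went on with Stat2 at 133 ± 6 and Jak2 at 83.8 ± 0.2. Ifngr2 at 61.6, Stat3 at 59.7 and Jak1 at 59.6 CPM per kilobase were neighbours that overlapped, and Ifngr1 at 18.6 and Cish at 1.23 were last. Comparisons between genes use the exon bases of all annotated transcripts together, while a ratio between groups does not depend on that length.

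**Figure D2:**
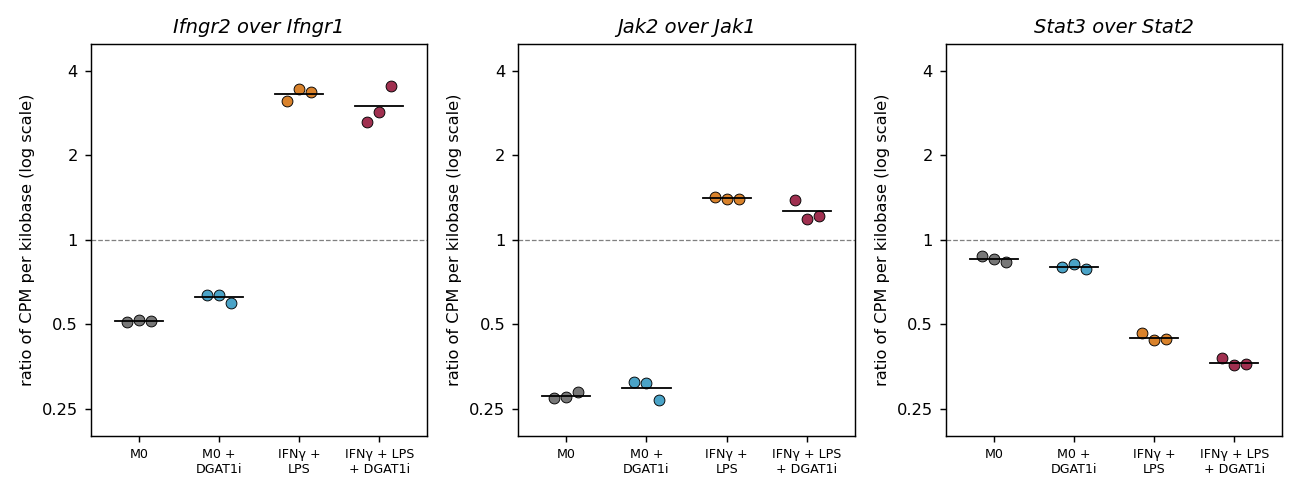
Ratios of 3 pairs of genes in each library, as CPM per kilobase of merged exon on a log scale; points are the 3 libraries of a group, black lines their mean, and the dashed line marks equal levels. Ifngr2 over Ifngr1 and Jak2 over Jak1 lie below 1 in both M0 groups and above 1 in both stimulated groups, and Stat3 over Stat2 is lower in IFNγ + LPS + DGAT1i than in IFNγ + LPS.

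Under stimulation, DGAT1i lowered Stat3 and Jak2, and by smaller steps Ifngr2, and raised Cish. These were 4 of the 9 members, 1 higher and 3 lower, against 29.8% of all genes called (13.5% higher and 16.3% lower). With so few members, no departure from these shares is read from the counts, and the calls of Ifngr2 and Cish did not hold in every fit. The groups of 5 members did not overlap, as for 39.7% of all genes. The median log2 fold change was -0.10 over the members and -0.01 over all genes.

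Stat3 was at 570, 585 and 550 CPM in IFNγ + LPS and at 425, 440 and 435 CPM in IFNγ + LPS + DGAT1i. All 3 libraries with the inhibitor lay below all 3 without it, and the mean went from 568 ± 17 to 433 ± 8 CPM (SD, n = 3), a fall of 23.8% (log2 fold change -0.39, SE 0.05, adjusted p = 7.55e-09). Jak2 went from 423, 422 and 421 CPM to 374, 343 and 339 CPM, a fall of 16.5% that again separated the libraries (log2 fold change -0.26, SE 0.05, adjusted p = 7.58e-05). Both calls held in all 12 fits that left out 1 library. The ratio of Stat3 to Stat2 per kilobase went from 0.448 ± 0.014 to 0.365 ± 0.012 (SD, n = 3) with no overlap (exact two-sided permutation p = 0.1, the lowest possible). At rest the same ratio went from 0.856 ± 0.022 to 0.802 ± 0.017, also with no overlap (exact two-sided permutation p = 0.1). Under stimulation, the ratio of Jak2 to Jak1 went from 1.41 ± 0.02 to 1.26 ± 0.11, also with no overlap (exact two-sided permutation p = 0.1).

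The changes of Ifngr2 and Cish were less secure. Ifngr2 went from 238, 233 and 226 CPM to 195, 207 and 223 CPM (log2 fold change -0.16, SE 0.06, adjusted p = 0.0346). Although the libraries did not overlap, the call was lost without either of IFNγ + LPS libraries 1 and 2, without either of IFNγ + LPS + DGAT1i libraries 1 and 2, with only the 6 libraries compared (adjusted p = 0.0740) and in DESeq2, with adjusted p up to 0.174. Cish went from 8.0, 7.02 and 8.62 CPM to 9.88, 14.0 and 11.9 CPM, on 123 reads against 166 (log2 fold change 0.60, SE 0.19, adjusted p = 0.0150). This call was lost without library 2 of either group (log2 fold change 0.51 and 0.46) and in DESeq2 (adjusted p = 0.126).

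The other 5 members did not pass the test under stimulation. Jak1 was lower in each inhibitor library, at 388, 416 and 399 CPM against 426, 434 and 433 CPM, with a log2 fold change of -0.10 (95% confidence interval -0.21 to -0.002, adjusted p = 0.119). Stat2 was at 698, 768 and 753 CPM with the inhibitor, overlapping the 765, 829 and 775 CPM without it (log2 fold change -0.10, adjusted p = 0.158). Socs1 was at 436, 417 and 429 CPM with a log2 fold change of -0.03 (95% confidence interval -0.13 to 0.07). Socs3 was at 441, 472 and 502 CPM with a log2 fold change of 0.11 (95% confidence interval -0.01 to 0.23, adjusted p = 0.154), which passed (adjusted p = 0.0448) when IFNγ + LPS + DGAT1i library 1 was left out. Ifngr1 was at 56.0, 54.7 and 47.6 CPM with a log2 fold change of 0.00 (95% confidence interval -0.16 to 0.17).

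At rest, DGAT1i lowered Ifngr1 slightly. Socs1, Socs3 and Cish had too few reads at rest to be kept by the read filter on the M0 libraries alone, and were tested only because their stimulated libraries passed it. Of the other 6 members Ifngr1 alone was called, against 24.4% of all genes, 11.0% higher and 13.4% lower. Total reads alone as the scaling moved the calls of all genes from 1298 higher and 1571 lower to 885 higher and 2092 lower. Ifngr1 was at 158, 150 and 142 CPM in M0 and at 134, 131 and 125 CPM in M0 + DGAT1i, with no overlap and a fall of 13.2% (log2 fold change -0.20, SE 0.06, adjusted p = 0.00747). The call was lost without M0 library 1 (adjusted p = 0.0788) and without M0 + DGAT1i library 3 (adjusted p = 0.0520). Socs3, whose test rests on that filter, had 9, 3 and 9 reads in M0 against 0, 3 and 4 in M0 + DGAT1i, and the libraries overlapped (log2 fold change -1.56, SE 0.55, adjusted p = 0.0303). From the reads alone, the level in M0 was 3.08 times that in M0 + DGAT1i, with a 95% interval of 1.26 to 8.58 that covers counting error only. The call was lost without M0 library 1 or 3 or M0 + DGAT1i library 1 and in DESeq2, with adjusted p up to 0.240.

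For the members not called at rest, the log2 fold change of Jak2 was 0.13 (95% confidence interval -0.01 to 0.28), with 39.2, 38.2 and 39.7 CPM against 45.2, 43.7 and 39.7 CPM, where the lowest library with the inhibitor was just above the highest without it. Jak2 and Ifngr1 were the 2 members without overlap, as were 37.8% of all genes. The intervals were -0.06 to 0.15 for Jak1, -0.05 to 0.20 for Ifngr2, -0.07 to 0.19 for Stat2 and -0.15 to 0.09 for Stat3. Socs1 with 12 reads against 20 and Cish with 6 against 10 had intervals of -0.18 to 1.54 and -0.72 to 2.04.

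**Figure D3:**
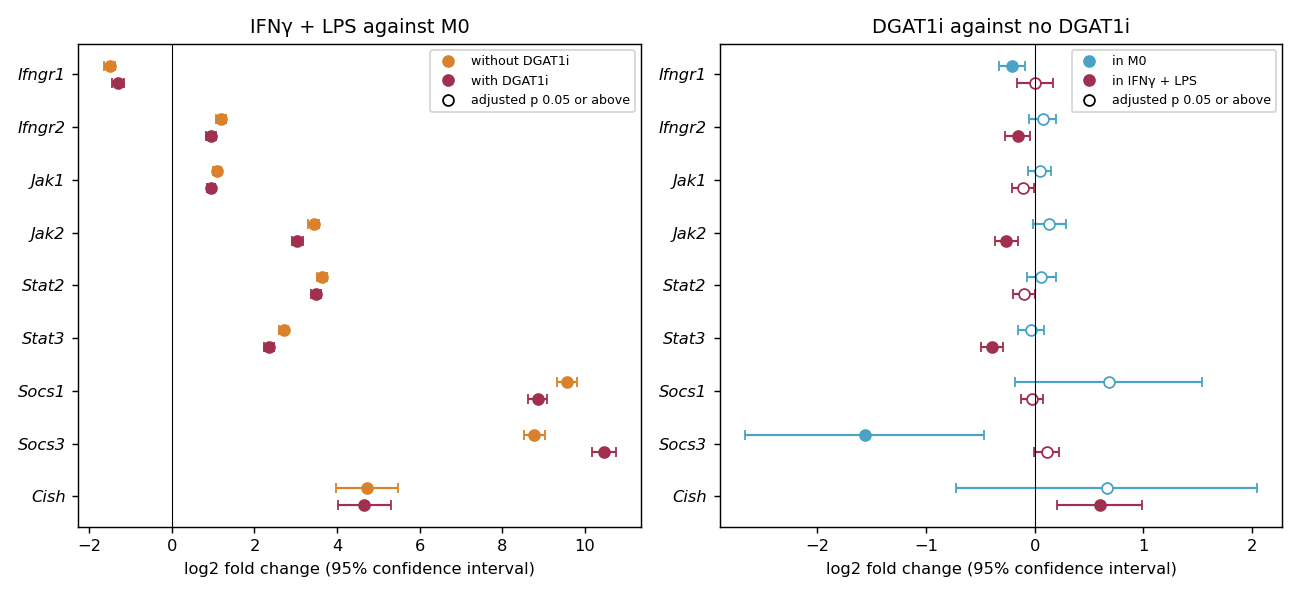
Log2 fold changes of the 9 genes with 95% confidence intervals. The left panel shows IFNγ + LPS against M0 without and with DGAT1i, the right panel DGAT1i against no inhibitor in M0 and in IFNγ + LPS, and filled points passed the test. Stat3 and Jak2 are to the left of 0 in IFNγ + LPS, where their points are filled, and open in M0, and the intervals of Socs1, Socs3 and Cish in M0 are wide.

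Whether the response to DGAT1i differed between stimulated and resting macrophages was tested directly. Of the 6 members with enough reads at rest, the difference passed for 3, all lower under stimulation, against 18.5% of all genes (8.66% higher and 9.80% lower). It was -0.36 for Stat3 (SE 0.08, adjusted p = 4.89e-04) and -0.39 for Jak2 (SE 0.09, adjusted p = 9.52e-04) on the log2 scale, and both held in all 12 fits that left out a library. For Ifngr2 it was -0.23 (SE 0.09, adjusted p = 0.0487), which held in 4 of those 12 fits and was lost with DESeq2's size factors, with total reads alone and in DESeq2 (adjusted p = 0.0726, 0.134 and 0.163). Socs3 was tested only through its stimulated libraries and is not counted with these. Its difference was 1.67 (SE 0.55, adjusted p = 0.0259), which rests on 21 reads in M0 against 7 in M0 + DGAT1i and was lost without M0 library 1 or 3 or M0 + DGAT1i library 1. For Ifngr1 the difference was 0.21 (adjusted p = 0.157), for Jak1 -0.15 (adjusted p = 0.150) and for Stat2 -0.16 (adjusted p = 0.193). Socs1 and Cish, also tested only through their stimulated libraries, were at -0.71 (adjusted p = 0.357) and -0.06 (adjusted p = 0.953).

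With the inhibitor present in both groups, stimulation called all 9 members, 8 higher and Ifngr1 lower, against 70.6% of all genes (35.3% higher and 35.3% lower), with no overlap for any member (72.5% of all genes). Here too Socs1, Socs3 and Cish passed the read filter only through the stimulated libraries and had to differ. Without them, Ifngr2, Jak1, Jak2, Stat2 and Stat3 were higher and Ifngr1 lower. Log2 fold changes were -1.30 for Ifngr1, 0.95 for Ifngr2, 0.94 for Jak1, 3.04 for Jak2, 3.49 for Stat2 and 2.35 for Stat3. They were 8.85 for Socs1, 10.45 for Socs3 and 4.66 for Cish, where 1 of the M0 + DGAT1i libraries had 0 reads of Socs3. Each direction was the same as without the inhibitor. The median was 3.04 over all 9 members, with Socs1, Socs3 and Cish included, and -0.01 over all genes. Per kilobase, Ifngr2 was at 0.623 ± 0.025 (SD, n = 3) of Ifngr1 in M0 + DGAT1i and at 3.01 ± 0.47 in IFNγ + LPS + DGAT1i.

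The wider pathway was described with 84 further genes in 7 lists, of which 72 had enough reads to be tested. Against M0, IFNγ + LPS raised 57, lowered 8 and left 7 short of the threshold, with 46 higher and 18 lower when total reads alone set the scaling. Of all genes, 37.1% were higher and 36.2% lower in that comparison, the shares beside which the stimulation counts of each list below stand. Under stimulation, DGAT1i raised 13 of the 72 and lowered 26, against 13.5% and 16.3% of all genes. At rest it raised 13 and lowered 10 (8 and 20 with total reads alone), against 11.0% and 13.4% of all genes. The difference between the responses passed for 9 that were higher and 13 that were lower under stimulation (10 and 9 with total reads alone), against 8.66% and 9.80% of all genes. The lists hold genes near 0 at rest, such as Cxcl9, Il12b and Il12rb1, which passed the read filter only through their stimulated libraries. Their rise with stimulation was fixed by that filter, and at rest they had too few reads to be kept alone. The counts of all lists, at rest and for the difference too, keep such genes and do not set them apart. Levels below are the mean ± SD of 3 libraries.

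Of 7 other JAKs, STATs and partners, 5 rose with stimulation and 1 fell, or 3 and 3 with total reads alone. Tyk2, a kinase of the type I interferon receptor, rose from 82.0 ± 1.4 to 256 ± 7 CPM (log2 fold change 1.64, SE 0.06), and Irf9, the partner of STAT2, rose from 56.2 ± 2.0 to 107 ± 4 CPM (0.93, SE 0.07). Stat4 fell from 2.47 ± 0.41 to 0.628 ± 0.246 CPM (log2 fold change -1.91). DGAT1i under stimulation raised none and lowered both Tyk2, to 192 ± 11 CPM (log2 fold change -0.42, adjusted p = 1.89e-08), and Irf9, to 73.8 ± 8.0 CPM (-0.53, adjusted p = 2.80e-08), against 16.3% of all genes lower. At rest none of the 7 passed, against 24.4% of all genes, and Irf9 alone was lower with total reads alone (-0.23, adjusted p = 0.0167). The difference between the 2 responses passed for Tyk2 (-0.47, adjusted p = 1.98e-05) and Irf9 (-0.36, adjusted p = 0.00879), against 9.80% of all genes lower.

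Of 19 tested receptors, 15 rose with stimulation and 2 fell, or 11 and 6 with total reads alone. Il15ra, a receptor chain of IL-15, rose from 2.15 ± 0.66 to 209 ± 14 CPM (log2 fold change 6.61), while Lifr, the receptor of leukaemia inhibitory factor, fell from 23.0 ± 1.2 to 2.45 ± 0.85 CPM (-3.20). Ifnar1 and Ifnar2, the chains of the type I interferon receptor, rose by 0.29 and 0.46 on the log2 scale, and total reads alone turned this to -0.17 and -0.01, a fall of Ifnar1 and no call for Ifnar2. DGAT1i under stimulation raised 5 and lowered 6, against 13.5% and 16.3% of all genes. Il13ra1 rose from 37.1 ± 4.0 to 61.9 ± 3.6 CPM (log2 fold change 0.74) and Il7r from 109 ± 14 to 187 ± 10 CPM (0.78). Il10ra, the ligand-binding chain for IL-10, fell from 401 ± 13 to 277 ± 15 CPM (-0.53, adjusted p = 1.13e-11), and Ifnar2 rose from 134 ± 8 to 162 ± 8 CPM (0.28, adjusted p = 3.62e-04). At rest, 5 rose and 3 fell (2 and 7 with total reads alone), against 11.0% and 13.4% of all genes, with Il7r up by 0.90 and Lifr down by 1.23 on the log2 scale.

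Of the other SOCS genes, 4 were tested, of which Socs4 and Socs7 rose with stimulation (log2 fold changes 0.59 and 0.72) and Socs5 and Socs6 fell (-0.79 and -0.61), and only Socs7 stayed higher with total reads alone. At rest DGAT1i raised all 4, by 0.27 for Socs4, 0.38 for Socs5, 0.21 for Socs6 and 0.28 for Socs7 on the log2 scale, against 11.0% of all genes, and 1 of them passed in DESeq2 and 1 with total reads alone. Under stimulation it raised Socs6 (0.26, adjusted p = 0.0310) and Socs7 (0.26, adjusted p = 0.0231), against 13.5% of all genes, and the difference between the responses was -0.21, -0.13, 0.06 and -0.02 for Socs4 to Socs7 in that order (adjusted p = 0.268 to 0.940). Of 12 other negative regulators 9 rose with stimulation and 2 fell, or 5 and 4 with total reads alone. Usp18, which removes ISG15 from proteins and restrains the type I interferon receptor, rose from 6.50 ± 0.45 to 698 ± 37 CPM (log2 fold change 6.74), and the adaptor gene Sh2b3 fell by 0.57. Under stimulation, DGAT1i lowered 5 of the 12 and raised none, against 16.3% of all genes lower, among them Usp18 to 431 ± 14 CPM (-0.70, adjusted p = 1.42e-16) and the phosphatase gene Ptpn6 from 510 ± 10 to 350 ± 11 CPM (-0.54, adjusted p = 1.25e-12). At rest Usp18 (-0.75, adjusted p = 9.27e-04) and Ptpn6 (-0.29, adjusted p = 1.98e-05) were the 2 of 12 that fell, against 13.4% of all genes, and 4 of 12 fell with total reads alone.

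Among 15 ligands, 7 were tested and 6 of them rose with stimulation, among them Il27 from 0.835 ± 0.243 to 76.7 ± 4.4 CPM (log2 fold change 6.49). Il27, Il6 and Il12b were near 0 at rest and passed the read filter only through the stimulated libraries, so their rise was fixed by it. Ifng itself had 0 reads in all 12 libraries, which allows up to 0.700 CPM in the library of least depth at 3 reads. Under stimulation, DGAT1i lowered 4 and raised 1 of the 7, against 16.3% and 13.5% of all genes, with Csf1 falling from 40.3 ± 4.3 to 21.6 ± 3.8 CPM (-0.91, adjusted p = 2.19e-08) and Osm rising from 11.8 ± 2.0 to 17.2 ± 0.5 CPM (0.54, adjusted p = 0.0104). At rest it raised Osm (0.59) and lowered Il10 (-1.10, adjusted p = 0.0103), on 65 reads against 31. Ifnb1, too low to be tested and named after its counts were seen, had 19 reads in IFNγ + LPS, 4 in IFNγ + LPS + DGAT1i and 0 in both M0 groups.

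Target genes were read from 2 lists. All 13 interferon target genes rose with stimulation, with a median log2 fold change of 8.25 (also 8.25 with Cxcl9, which had 0 reads in M0, at its bound of 3 reads over the group), among them the chemokine gene Cxcl10 from 0.563 ± 0.257 CPM to 2342 ± 53 CPM (11.99). Cxcl9 and Cxcl10, like other listed genes near 0 at rest, passed the read filter only through the stimulated libraries, so their rise was fixed by it. DGAT1i under stimulation lowered 8 of the 13 and raised none, where 16.3% of all genes were lower, with a median log2 fold change of -0.32. Cxcl10 fell to 1286 ± 19 CPM (-0.86, adjusted p = 3.72e-20), while Irf1 was at 1986 ± 8 and 1925 ± 52 CPM (-0.05, adjusted p = 0.542). At rest 3 of the 13 were lower (5 with total reads alone), against 13.4% of all genes, among them Irf1 (-0.47, adjusted p = 1.40e-06). Of 10 targets of STAT3 and STAT5, 7 rose and 1 fell with stimulation, or 7 and 3 with total reads alone. DGAT1i then raised 5 of the 10, against 13.5% of all genes, and lowered Junb (-0.20, adjusted p = 0.00385). The 5 were Nfil3 (0.66), Saa3 (0.61), Mcl1 (0.35), Pim1 (0.29) and Il1rn (0.25). At rest 3 of the 10 rose, namely Pim1 (0.40, adjusted p = 0.0139), Bcl6 (0.31) and Mcl1 (0.21, adjusted p = 0.00162), and Ccnd1 fell (-0.54), against 11.0% of all genes higher and 13.4% lower.

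**Figure D4:**
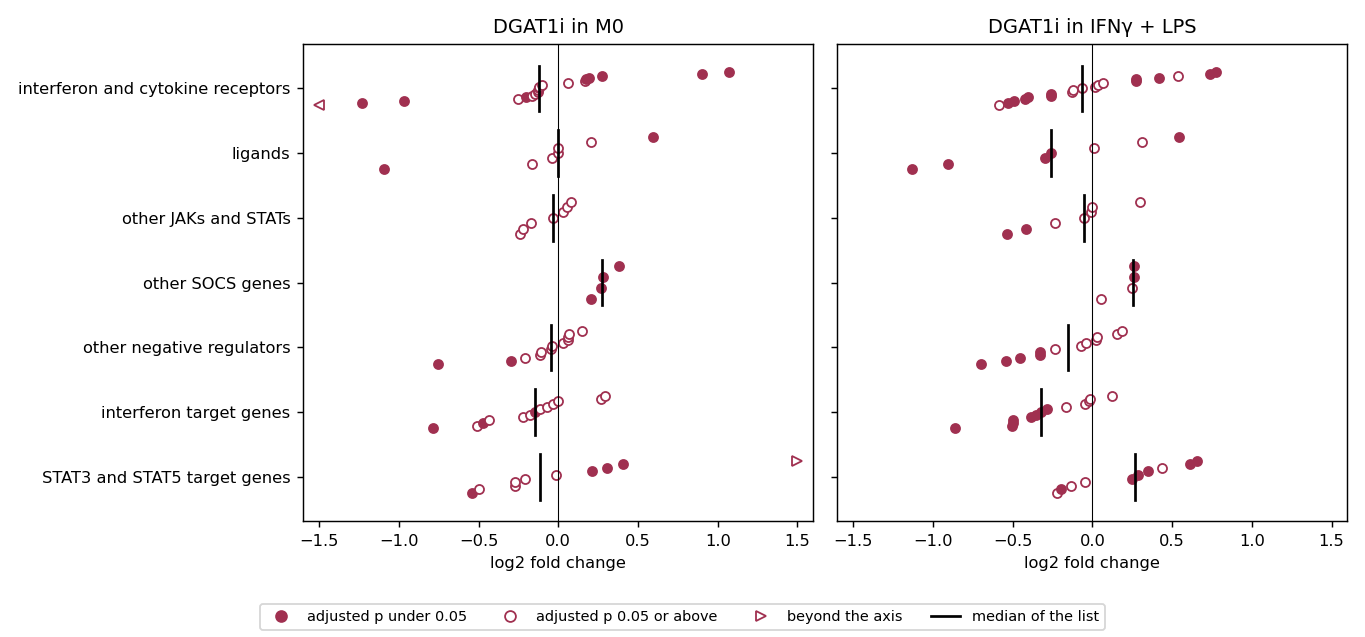
Log2 fold change of each tested gene of the 7 pathway lists for DGAT1i in M0 (left) and in IFNγ + LPS (right). Filled points passed the test, black bars are list medians, and 2 genes beyond the axis in M0 are drawn as arrowheads. In IFNγ + LPS, 8 of 13 interferon target genes and 2 of 7 other JAKs, STATs and partners (Tyk2 and Irf9) are lower, against 16.3% of all genes. There, 5 of 10 STAT3 and STAT5 targets are higher, against 13.5% of all genes.

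Across the 12 libraries, the members followed each other closely, and each of them separated stimulated from resting libraries. Pearson's r of log2 CPM was between 0.970 and 0.998 for pairs among the 8 members that rose, and between -0.991 and -0.975 for Ifngr1 with each of them. These are descriptions over 12 libraries in 4 groups, without a test. By the same measure, the genes most like each member among 10171 genes were Dgkd and Nrcam for Ifngr1 (r = 0.997 and 0.995), Rnf135 and Uhrf1bp1 for Ifngr2 (0.996 and 0.996), Fgl2 and Prkx for Jak1 (0.999 and 0.999), and Slc31a2 and Slc6a19 for Jak2 (0.999 and 0.999). They were Rsad2 and Cxcl9 for Stat2 (1.00 and 1.00), Stx2 and Serpina3f for Stat3 (1.00 and 0.999), Ccl5 and Ifi204 for Socs1 (0.999 and 0.999), Cd300lf and Ifi203 for Socs3 (0.997 and 0.997) and Wnk2 and Kpna4 for Cish (0.998 and 0.996). Between 50 and 526 genes had r above 0.99 with a given member, so the likeness is shared widely.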

How the data were processed

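The deposited table holds raw counts of reads per gene for 12 libraries, made by the authors on GRCm38 in a core facility pipeline. The submitters' processing notes name DESeq2. Aligner, counter and annotation release were not given in the sources used here. The sources name 2 different library kits, so strandedness of the counting is unknown. Symbols come from GENCODE M21 (627 of 47937 identifiers had none). Totals were 4996014 to 6621671 reads. Genes were kept by edgeR's filterByExpr, which left 11760. Counts were scaled by TMM and fitted with edgeR 4.0.16 (R 4.3.3) by quasi-likelihood, robust, over all 12 libraries and 4 groups, with Benjamini-Hochberg adjustment over all tested genes and a threshold of 0.05. Fits were tested on simulated data. CPM use TMM-scaled totals, and log2 CPM a prior count of 2. Libraries of a group correlated at r of 0.988 to 0.992 and differed by more than counting noise. Alternatives were DESeq2 1.42.0, its size factors, total reads alone, no filter, a mean of at least 1 CPM, the 6 libraries compared, a replicate block and each library left out. Beyond the members, the named genes are the rise and the fall with the smallest adjusted p of each list in the first 3 comparisons, with Tyk2, Irf9, Ifnar1 and Ifnar2, and 1 further pathway gene is not reported here. Socs4 and 4 raised targets (Saa3, Mcl1, Pim1, Il1rn) were chosen on their values. The members and lists were chosen with earlier results of these data known.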

Additional observations from a re-analysis of the deposited data

Results flagged for a closer look

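The response to DGAT1i differed between stimulated and resting macrophages for 3 of the 6 members with enough reads at rest, where 18.5% of all genes passed the same test of the difference in edgeR's quasi-likelihood fit. On the log2 scale, the response in IFNγ + LPS minus that in M0 was -0.36 for Stat3, -0.39 for Jak2 and -0.23 for Ifngr2. It was 1.67 for Socs3, which was tested only through its stimulated libraries. The value for Socs3 rests at the M0 end on 21 reads, against 7 in M0 + DGAT1i, and passed in 9 of the 12 fits with a library left out, the exceptions being M0 library 1 (1.42), M0 library 3 (1.45) and M0 + DGAT1i library 1 (1.10). The difference for Ifngr2 passed in 4 of those 12 and was lost with DESeq2's size factors, with total reads alone and in DESeq2 (adjusted p = 0.0726, 0.134 and 0.163).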

How the results depend on the processing

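Of the 9 members, 4 were called for DGAT1i under stimulation, against 2 in DESeq2, 3 with the 6 libraries compared (without Ifngr2) and 2 to 4 with a library left out. The shares of all genes called there were 29.8%, 21.8% in DESeq2, 31.3% with the 6 libraries compared and 24.4% to 29.9% with a library left out. At rest, 2 were called (Ifngr1, and Socs3, which was tested only through its stimulated libraries), against 1 in DESeq2, 1 with the 6 libraries compared (where too few reads kept Socs1, Socs3 and Cish out) and 0 to 2 with a library left out, 0 without M0 library 1. The shares of all genes called at rest were 24.4%, 15.7% in DESeq2, 26.9% with the 6 libraries compared and 19.0% to 25.2% with a library left out. For the difference between the responses 4 were called (Socs3 among them), against 2 to 4 with a library left out. The 9 calls of each stimulation comparison were made in every setting run, where the main fit called 73.3% of all genes without and 70.6% with the inhibitor. Values near 0 changed sign: Ifngr1 for DGAT1i under stimulation was -0.0041 with total reads alone, -0.033 without the filter, -0.0026 in DESeq2 and -2.07e-05 with the replicate block, and -0.042 to 0.065 with a library left out, Socs1 there was -0.059 to 0.0062, Jak1 at rest was -0.010 with total reads alone, and the difference for Cish was -0.34 to 0.11. The cause was not tested. Same-numbered libraries of different groups deviated together only weakly (r of -0.02 to 0.07, positive in 14 of 18 pairs, with 21 of 36 cases correlating best with their own number where unrelated numbers would give 12), below the r of 0.1 asked of every pair, so the numbers were not read as pairs. A replicate block left the members' calls at 9, 4, 2, 4 and 9 and moved those of all genes from 8615 to 8635 for stimulation, 3508 to 3568 for DGAT1i under stimulation, 2869 to 2959 at rest and 2171 to 2268 for the difference. Depth limits Socs1, Socs3 and Cish at rest, with 0 to 9 reads per library.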
